A study of Mus musculus with 4 samples.

Results

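The suppressors of cytokine signalling Socs1 to Socs7, their relative Cish and the transcription factor Stat3 were followed in mouse brain after a stroke. These 9 genes were taken by name, with earlier results of these data known. Probes were assigned to them through the RefSeq accession printed on the array, and 9 of 9 genes were present among 33269 features (named genes plus probes that kept an accession). They had 11 probes, because Socs4 and Socs6 had 2 each, and the brightest probe stood for the gene.

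Tissue came from male C57BL/6J mice aged 9 weeks in which the middle cerebral artery had been closed for good by a filament (the PMCAO model), and all 4 tissues are labelled as saline-treated: saline, the control for the peptide PACAP38, went into the ventricle right after surgery. At 6 h, ischemic core, where blood flow is lost most deeply, and the penumbra around it were cut out with the corresponding healthy core and healthy penumbra. Each of 4 arrays held ischemic tissue in one dye and healthy tissue in the other: replicates 1 and 2 were core, replicates 3 and 4 were penumbra, and ischemic RNA was in Cy5 on replicates 1 and 3 and in Cy3 on replicates 2 and 4. The design speaks of 3 mice per group with neurological grades G1 and G2. It does not say whether their RNA was pooled, whether the arrays of a pair held different extracts, or where the healthy tissue was taken. Each pair of arrays was therefore counted as 1 replicate, ± is the SD between its arrays, and calls were made by size.

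Cytokines such as interleukin 6, leptin, interferons and growth hormone bind receptors that carry Janus kinases. The kinases phosphorylate STAT factors, which enter the nucleus and switch on target genes, among them genes of the Socs family. Socs proteins bind phosphorylated receptors or kinases through an SH2 domain, and their Socs box recruits elongins and a cullin to mark the bound protein for destruction, which closes a feedback loop. In the brain, Socs3 is known as the main brake on Stat3 downstream of leptin and interleukin 6 receptors. Stat3 itself is activated by phosphorylation, which RNA arrays do not measure.

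STAT dimers bind a palindrome, TTCNNNGAA, which reads the same on both strands. It was looked for in the promoters because STAT dimers bind it. Whether STATs act on these genes through it was not tested. Windows from 250 bases before to 50 bases after the annotated start, from RefSeq on GRCm38.p6, were at hand for 5 of the 9 genes (Cish, Socs1, Socs3, Socs4 and Stat3), and 2 of them held the motif. Of 32851 such windows, 8.3% held at least 1 match and 0.457% held 2 or more. The 250 bases before the start of Socs3 (chr11:117969367-117969616, minus strand) hold 1 match, whose first base lies at -154 from the start, given in capitals:
Socs3: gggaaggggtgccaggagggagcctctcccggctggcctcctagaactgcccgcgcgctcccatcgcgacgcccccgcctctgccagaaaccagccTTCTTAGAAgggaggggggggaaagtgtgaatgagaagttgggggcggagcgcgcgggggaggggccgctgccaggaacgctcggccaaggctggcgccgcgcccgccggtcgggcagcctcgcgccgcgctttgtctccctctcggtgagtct
The window of Cish holds 2 matches that sit side by side at the annotated start itself (chr9:107296659-107296678, plus strand), with both matches in capitals:
Cish: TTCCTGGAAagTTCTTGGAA
These letters are a description of the promoters; binding was not measured.

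All ratios below are log2 of ischemic over healthy tissue, set so that the bulk of features lies at 0. Median spot signals were 192 to 310 against median local backgrounds of 64 to 71, and 76.1% to 79.4% of spots were well above background. All 11 probes of the 9 genes were well above background in 8 of 8 channels. The median SD of a feature between the arrays of a pair was 0.10 in either region, and 98.1% of features in the core and 97.9% in the penumbra lay within 0.5 log2 of 0. Ischemic tissue carried more spike-in signal than healthy tissue, so a scaling to 10 spike-in control transcripts lowers every ratio by 0.47 in the core and 0.46 in the penumbra.

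Socs3 had the highest ratio of the 9 genes in both regions, although in the penumbra Socs7 was higher with processed signals, at 0.76, and level with it with median centring, at 0.44. In the core its log2 ratio was 0.92 on replicate 1 and 0.90 on replicate 2. In the penumbra it was 0.48 on replicate 3 and 0.62 on replicate 4. All 4 arrays were above 0, and both core arrays were above both penumbra arrays. The core mean was 0.91 ± 0.01 (SD, n = 2 arrays), or 1.88-fold, and the penumbra mean 0.55 ± 0.10 (SD, n = 2 arrays), or 1.47-fold. Of all features, 0.395% had a ratio as high or higher in the core, and 1.48% in the penumbra. With spike-in scaling both means stayed above 0, at 0.44 and 0.09.

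**Figure D1:**
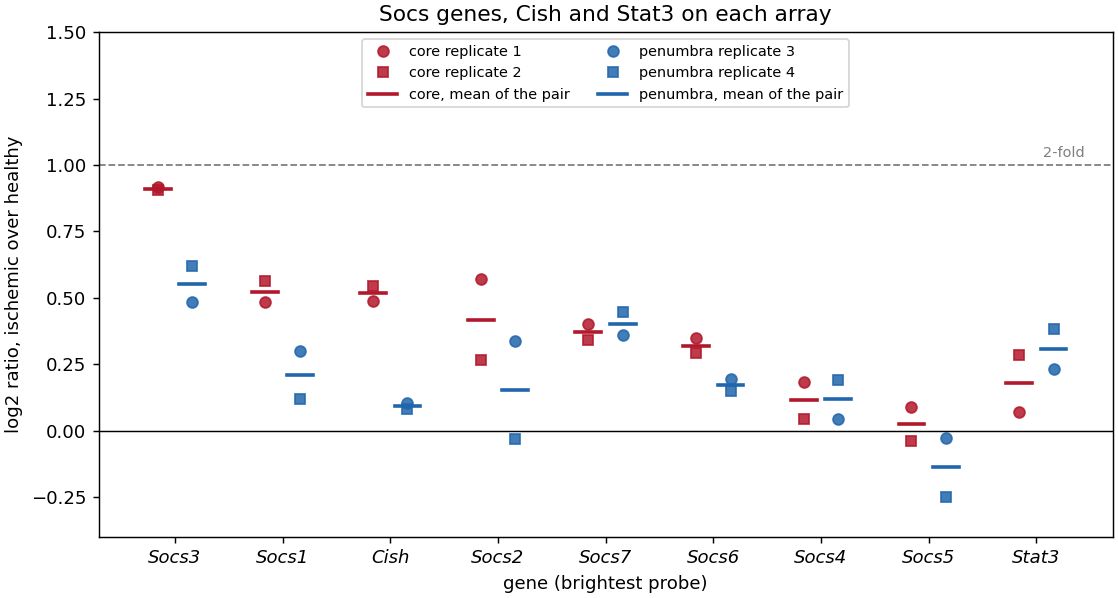
Log2 ratio of ischemic over healthy tissue (vertical axis) for the 9 genes (horizontal axis) on each array; red marks are the core arrays, blue marks the penumbra arrays, short bars the mean of each pair, and the dashed line is 2-fold. Socs3 stands highest in both regions, at 0.92 and 0.90 on the core arrays and 0.48 and 0.62 on the penumbra arrays, and no pair mean reaches the dashed line.

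Socs1, which like Socs3 blocks the kinase itself, had a log2 ratio of 0.48 and 0.56 on the core arrays and of 0.30 and 0.12 on the penumbra arrays. Its means were 0.52 ± 0.05 (1.44-fold) and 0.21 ± 0.13 (1.16-fold), with no overlap between core and penumbra arrays. With spike-in scaling the core mean was 0.05 and the penumbra mean turned to -0.25. The probe of Socs1 was dim, with ischemic spot signals of 357 and 261.5 in the core against local backgrounds of 72 and 65. The scanner software's processed signals, to which no offset was added here, gave Socs1 0.75 in the core and 0.34 in the penumbra.

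Cish, a target gene of Stat5 that restrains erythropoietin and interleukin 2 type receptors, differed between the regions. It had 0.49 and 0.54 on the core arrays but 0.10 and 0.08 on the penumbra arrays. The means were 0.52 ± 0.04 (1.43-fold) in the core, where 1.59% of features were as high or higher, and 0.09 ± 0.02 in the penumbra. The arrays of each pair lay close together, and the gap of 0.43 ± 0.04 was wider than the spread within pairs. Each pair counts as 1 replicate, so that spread may be technical and cannot tell how firm the gap between regions is. With spike-in scaling the core mean was 0.04 and the penumbra mean turned to -0.37, and with median centring the penumbra mean was also just below 0.

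Socs2, the brake on growth hormone signalling, differed more between the arrays of a pair than the other genes did. It had 0.57 and 0.26 on the core arrays and 0.34 and -0.03 on the penumbra arrays. On each pair the array with ischemic RNA in Cy5 was the higher one. The means were 0.42 ± 0.22 in the core and 0.15 ± 0.26 in the penumbra, where the mean was smaller than the SD. With spike-in scaling both turned negative, at -0.06 and -0.31.

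Socs7 and Socs6 belong to a branch of the family that binds insulin receptor substrates and related proteins. Socs7 had 0.40 and 0.34 on the core arrays and 0.36 and 0.45 on the penumbra arrays. These 4 values overlapped between regions, and the means were 0.37 ± 0.04 (1.29-fold) and 0.40 ± 0.06 (1.32-fold). Its probe was dim, with spot signals of 107 to 180 over local backgrounds of 63.5 to 73. Processed signals gave it 0.73 in the core and 0.76 in the penumbra, where no other gene of the 9 was higher under that setting, and spike-in scaling turned it to -0.10 and -0.06. Socs6 had 0.35 and 0.29 on the core arrays and 0.19 and 0.15 on the penumbra arrays, with means of 0.32 ± 0.04 and 0.17 ± 0.03 and no overlap between the regions. Its second probe gave a smaller difference in the same order, with 0.25 and 0.19 in the core and 0.10 and 0.08 in the penumbra. Spike-in scaling turned the means of Socs6 to -0.16 and -0.29.

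Socs4 and Socs5, a closely related pair linked to receptors of the epidermal growth factor type, had ratios near 0. Socs4 had 0.18 and 0.05 on the core arrays and 0.04 and 0.19 on the penumbra arrays, with means of 0.11 ± 0.10 and 0.12 ± 0.10. The second probe of Socs4 disagreed in the penumbra, where it had -0.13 and -0.08. Both probes were dim, with ischemic spot signals of 99 to 151. Socs5 had 0.09 and -0.04 on the core arrays and -0.03 and -0.25 on the penumbra arrays, so its means of 0.03 ± 0.09 and -0.14 ± 0.16 were smaller than their SDs. With spike-in scaling all 4 of these means were below 0, between -0.35 and -0.60.

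Stat3, the factor that Socs3 restrains, had 0.07 and 0.29 on the core arrays and 0.23 and 0.38 on the penumbra arrays. Its means were 0.18 ± 0.15 in the core and 0.31 ± 0.11 in the penumbra, or 1.13-fold and 1.24-fold, and the regions overlapped. With spike-in scaling they turned to -0.30 and -0.16. The probe of Stat3 was printed 10 times on every array. Over these 10 spots the SD was 0.02 to 0.03 on each array, while the spot medians were 0.07, 0.29, 0.24 and 0.38 on replicates 1 to 4. The arrays of a pair thus differed by more than repeat spots of 1 array. On both pairs the array with ischemic RNA in Cy3 was the higher one.

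By the size rule, a feature was called at 2-fold or more in the pair mean and 1.5-fold or more in the same direction on each array. No gene of the 9 was called in the core, where calls came to 0.31% of features for higher and 0% for lower, and none in the penumbra, where 0.241% were called higher and 0.00401% lower. Without a size limit, 8 of the 9 genes were above 0 on both core arrays, Socs5 being mixed, against 26.9% of all features (28% were below 0 on both), while with spike-in scaling the count was 3 (Socs3, Socs1 and Cish). In the penumbra 7 of the 9 were above 0 on both arrays against 30.3% of features, Socs2 was mixed, and Socs5 was below 0 on both, where 32.4% of features were. With spike-in scaling the count above 0 in the penumbra was 1 (Socs3). The median of the 9 genes was 0.37 in the core and 0.17 in the penumbra, against -0.01 for all features in either region.

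limma over single arrays, whose p-values measure only the spread between arrays, was run as an alternative on all features with Benjamini-Hochberg adjustment. In the core 3 of the 9 genes passed an adjusted p of 0.05: Socs3 (limma adjusted p = 0.00838), Cish (limma adjusted p = 0.0335) and Socs1 (limma adjusted p = 0.0461). In the penumbra Socs3 alone passed (limma adjusted p = 0.0338). Of all features, 1.47% passed in the direction of higher in the core and 1.65% in the penumbra. With a coefficient for dye in limma, 7 of the 9 passed as higher in the core, where 15.8% of features passed as higher and 13.2% as lower. In the penumbra 6 passed as higher and Socs5 as lower, where 21.6% of features passed as higher and 21.1% as lower.

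**Figure D2:**
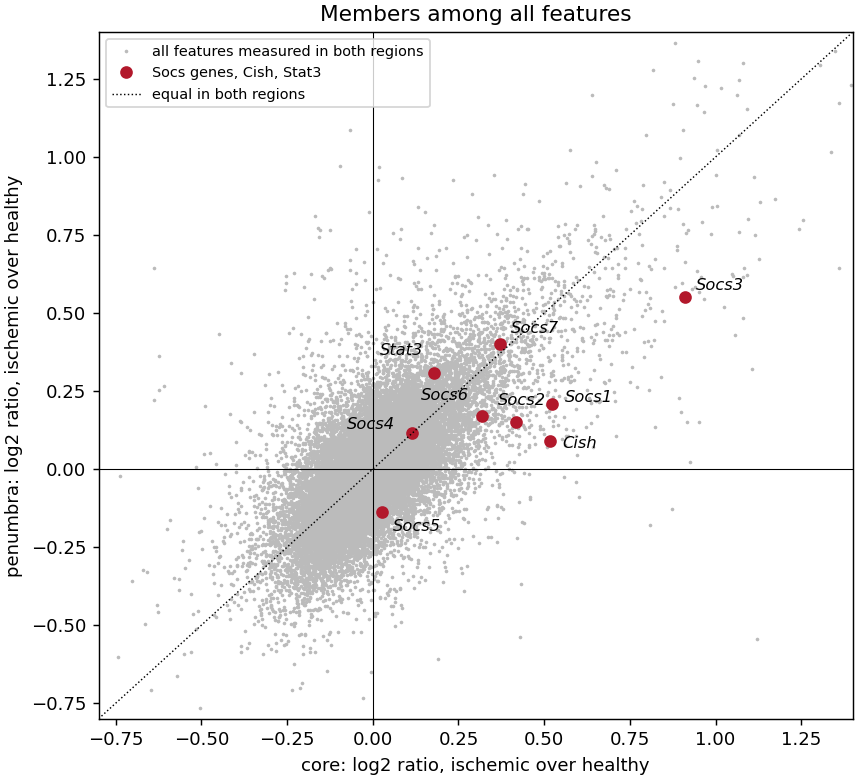
Mean log2 ratio of each pair in the core (horizontal axis) against the penumbra (vertical axis), for 24206 features measured in both (grey; 48 lie outside the plotted range) and the 9 genes (red); the dotted line marks equal ratios. Cish and Socs1 lie below the dotted line near 0.52 in the core, Socs7 lies near it, and Stat3 lies above it.

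A scaling that shifts both regions alike cancels in the difference between the core and the penumbra response, and spike-in scaling moved it by about 0.01. Other processing did not cancel: the difference of Cish was 0.53 with median centring and 0.47 with processed signals. As reported, the difference was largest for Cish, at 0.43 ± 0.04, a value reached by 0.638% of features, but the order rested on single arrays. Socs2 was the highest without core replicate 2, at 0.42, and without penumbra replicate 3, at 0.45, and Socs3 without penumbra replicate 4, at 0.43, while Cish stayed between 0.40 and 0.45 in each of these fits and without core replicate 1. Socs3 followed with 0.36 ± 0.10, Socs1 with 0.31 ± 0.14 and Socs2 with 0.26 ± 0.34. Socs5 and Socs6 had 0.16 ± 0.18 and 0.15 ± 0.05. Socs4 and Socs7 had -0.0033 ± 0.14 and -0.03 ± 0.07, and Stat3 had the lowest difference, -0.13 ± 0.19. The lowest was Socs4 instead with median centring, at -0.10, and without core replicate 1, at -0.07.

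In Socs1, Socs3, Socs6 and Cish both core arrays were above both penumbra arrays, 4 of 9 genes against 15.7% of features, and in none of the 9 were both below, against 14.8%. By size, which asked for 1 log2 unit and arrays apart, 0 of the 9 were called, where 0.0396% of features were called higher and 0.0198% lower, together 0.0594%. limma over arrays gave 0 of 9 at an adjusted p of 0.05, which 0.00792% of features passed as higher, with 0.651 for Cish and 0.836 for Socs3, and at an unadjusted p under 0.05 limma gave Cish, Socs3 and Socs1 as higher, where 1.99% of features passed as higher and 2.41% as lower. With a dye coefficient, limma's adjusted p was 0.00259 for Cish, 0.00905 for Socs3, 0.028 for Socs1 and 0.0324 for Socs2, where 3.45% of features passed as higher and 3.64% as lower.

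The single-channel signals show where these ratios come from. They were put on 1 scale across arrays by making the average intensity of the arrays alike, and tissues were compared within each dye. In Socs3 the order from low to high was healthy core at 11.61, healthy penumbra at 11.82, ischemic penumbra at 12.37 and ischemic core at 12.52 (mean log2 signal of both dyes), and no neighbours in that order overlapped. Healthy core was lower than healthy penumbra by a log2 ratio of -0.20 ± 0.09 (SD, n = 2 dyes), while ischemic core was higher than ischemic penumbra at 0.15 ± 0.02. The wider response of Socs3 in the core was therefore made up of a lower healthy and a higher ischemic signal. Of all features, 13.9% were as low or lower between healthy pieces, and 25.7% as high or higher between ischemic pieces.

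**Figure D3:**
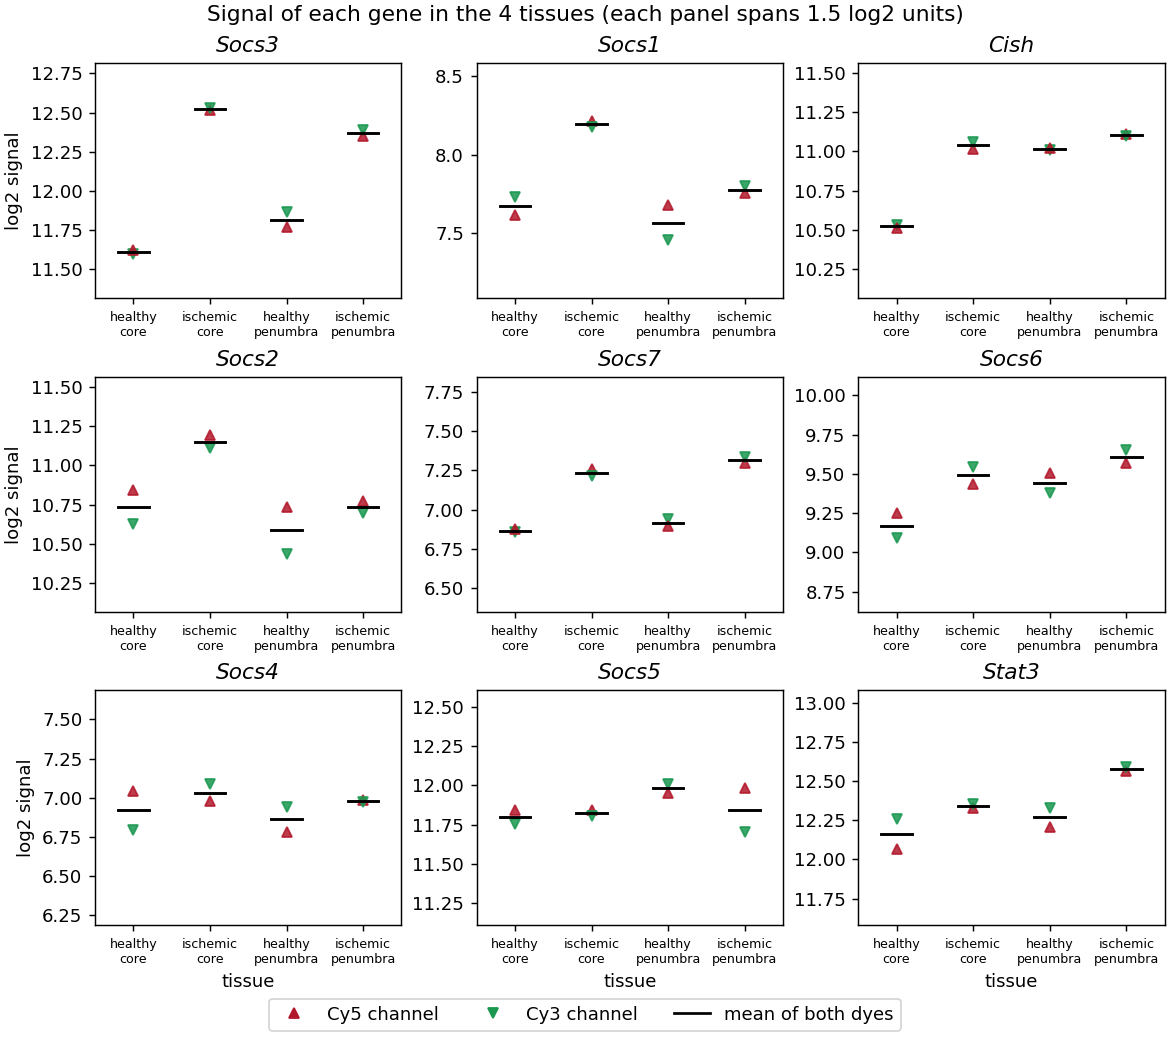
Log2 signal (vertical axes, each spanning 1.5 log2 units) of each gene in the 4 tissues (horizontal axes), with red upward triangles for Cy5, green downward triangles for Cy3 and a bar for the mean of both dyes. Cish is lowest in healthy core, at 10.53 and 10.51, while its other 3 tissues lie between 11.01 and 11.11.

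Cish differed in its healthy tissue. Its signal in healthy core was 10.53 and 10.51, against 11.01 and 11.02 in healthy penumbra, 11.02 and 11.06 in ischemic core and 11.11 and 11.10 in ischemic penumbra. Healthy core over healthy penumbra was -0.49 ± 0.02, a value that 4.23% of features reached or went below, and ischemic core over ischemic penumbra was -0.07 ± 0.04. Ischemic core and healthy penumbra were not apart. The gap in the response of Cish thus lay in the healthy tissue.

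Socs1 and Socs2 showed the other arrangement. Socs1 was at 8.21 and 8.18 in ischemic core, against 7.75 and 7.80 in ischemic penumbra, 7.73 and 7.62 in healthy core and 7.45 and 7.68 in healthy penumbra, whose healthy values overlapped. Socs2 was at 11.20 and 11.11 in ischemic core, and its other 3 tissues overlapped between 10.44 and 10.85. Ischemic core over ischemic penumbra was 0.42 ± 0.06 for Socs1 and 0.41 ± 0.01 for Socs2, while healthy core over healthy penumbra was 0.11 ± 0.24 and 0.15 ± 0.05.

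Stat3 was highest in ischemic penumbra, at 12.56 and 12.59, apart from ischemic core at 12.34. Healthy penumbra, at 12.27, overlapped with healthy core, at 12.16, and at its edge with ischemic core (12.3307 against 12.33). Healthy core, at most 12.26, lay below ischemic core. For Socs7 the order was healthy core at 6.86, healthy penumbra at 6.92, ischemic core at 7.24 and ischemic penumbra at 7.32, all apart. Socs6 was lowest in healthy core at 9.17 and highest in ischemic penumbra at 9.61, with healthy penumbra at 9.44 and ischemic core at 9.49 not apart. No neighbouring tissues were apart for Socs4, between 6.86 and 7.03, or for Socs5, between 11.80 and 11.98.

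Between healthy core and healthy penumbra 0 of the 9 genes were called, where 0.313% of features were called higher and 0.819% lower. Socs2 was higher in healthy core in both dyes and 6 genes were lower, against 41% and 32.1% of features, and the median was -0.11. Between ischemic core and ischemic penumbra 0 of 9 were called, where 0.442% of features were called higher and 0.913% lower. There 3 genes (Socs1, Socs2 and Socs3) were higher in both dyes and 4 were lower, against 41.5% and 32.3% of features, and the median was -0.02.

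The pieces labelled core and penumbra also differed in the markers of the tissue they held. Choroid plexus markers had a median log2 ratio of -3.38 for healthy core over healthy penumbra, with 6 of 6 called lower and summed signals of 1524.2 to 1568.8 against 21840.6 to 23327.8. Striatal neuron markers had -1.88, with 7 of 8 called lower, and oligodendrocyte markers -0.63, with 1 of 5. The core response of the striatal markers minus their penumbra response had a median of 0.32. Both core arrays were above both penumbra arrays in 6 of 8 genes, as in Cish, Socs3, Socs1 and Socs6, against 15.7% of features. For choroid plexus and meningeal fibroblast markers this median was -0.69 and -0.69. Both core arrays were below both penumbra arrays in 6 of 6 genes each, against 14.8% of features. In the penumbra, choroid plexus markers also had a ratio of 0.67 for ischemic over healthy, all 6 above 0 on both arrays, and meningeal fibroblast markers 0.46, which spike-in scaling would bring to just below 0, while in the core their medians were -0.02 and -0.11. The part of these tissues in the healthy level of Cish, or in any other comparison of core with penumbra above, was not tested.

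Neutrophil markers did not all move alike with ischemia. Of 6 genes 5 were measured, and 3 (S100a8, S100a9 and Retnlg) were called higher in either region. Csf3r had 0.15 ± 0.13 (core) and 0.05 ± 0.15 (penumbra), and Ngp had 0.56 ± 0.11 and 0.13 ± 0.11. The neutrophil markers had a median log2 ratio of 2.11 (core) and 1.496 (penumbra). Their summed signal was 2766.5 to 2902.6 in healthy core and 13372.8 to 14656.2 in ischemic core, and 3431.7 to 3682.2 in healthy penumbra and 10407.2 to 13583.4 in ischemic penumbra. The granule gene Camp was not well above background in any tissue, and Ngp in neither healthy tissue. Ngp, which counts in these medians, thus passed the filter on dim probes through ischemic tissue alone, which favours ratios above 0. Microglia markers had medians of 0.03 and 0.06, astrocyte markers -0.07 and 0.09, and neuron markers -0.05 and -0.12, with 0 called in each list. The microglia markers went both ways, from Tmem119 at -0.44 (core) and -0.18 (penumbra) to Aif1 at 0.25 and 0.40. The part of neutrophils in the ratios of Socs3 and Socs1 was not tested, and in bulk tissue a change in the number of cells and a change in RNA per cell cannot be told apart.

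The rest of the pathway was read from lists of its parts, starting with the signals. Of 20 cytokine ligands 9 were measured, 9 were not well above background and 2 were not matched by symbol, and 0 were called. The brightest were Il27, a relative of interleukin 12 that signals through Il6st, at -0.09 ± 0.06 (core) and -0.09 ± 0.13 (penumbra), and Thpo, the platelet growth factor, at -0.25 ± 0.15 and -0.32 ± 0.24. The ligand median was 0.25 in the core and -0.09 in the penumbra. Il6, the founding ligand of the family that acts through Stat3, was chosen after its values were seen: it had 0.84 and 0.78 on the core arrays and -0.22 and -0.14 on the penumbra arrays. Csf3, the growth factor of neutrophils, and Il11, a cytokine related to Il6, were also chosen after their values were seen. Csf3 had 0.43 ± 0.11 (core) and -0.54 ± 0.08 (penumbra), and Il11 had 0.38 ± 0.05 and -0.13 ± 0.09. Tslp, a cytokine of barrier tissues and the highest ligand in the penumbra, was chosen after its values were seen too. It was above 0 on all 4 arrays, with 0.68 ± 0.12 in the core and 0.56 ± 0.06 in the penumbra. However, Tslp was not well above background on both arrays of either healthy tissue. It passed the filter on dim probes through ischemic tissue alone, which favours ratios above 0. Processed signals gave Il6 2.52 and Csf3 1.46 in the core. With spike-in scaling the core ratio of Il6 stayed above 0 at 0.34, and those of Csf3 and Il11 turned to -0.05 and -0.09.

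Of 20 cytokine receptors, all measured, 0 were called, with medians of 0.05 in the core and -0.01 in the penumbra. Among the brightest were Il11ra1, the receptor of interleukin 11, at 0.30 ± 0.01 and 0.26 ± 0.05, and Epor, the erythropoietin receptor, at 0.22 ± 0.10 and -0.22 ± 0.11. Of the 4 kinases that link receptors to STATs 0 were called, with medians of -0.03 and -0.06, and Jak1 had -0.05 ± 0.01 and -0.17 ± 0.03. Jak2, the kinase of the growth hormone and erythropoietin receptors, had 0.27 ± 0.05 and 0.22 ± 0.0025. None of the 6 other STAT genes was called, with medians of -0.02 and 0.0032. Stat5b, which acts downstream of growth hormone, had 0.04 ± 0.33 and 0.17 ± 0.30, both smaller than their SDs.

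The other brakes on the pathway, phosphatases, PIAS proteins and the adaptor Sh2b3, had medians of 0.11 and 0.10, with 0 of 10 called. The phosphatase Ptpn1 had a core ratio of 0.20 ± 0.10 and a penumbra ratio of 0.04 ± 0.01, and Ptpn11 had 0.08 ± 0.12 and 0.14 ± 0.11. The highest in the core was Ptpn6, a phosphatase of blood cells, at 0.58 ± 0.10. The partners through which the Socs box marks proteins for destruction were at 0.0003 and -0.0027 in the median, with 0 of 6 called. The elongin Elob had 0.04 ± 0.11 and 0.05 ± 0.09, and the ring finger protein Rbx1 had -0.06 ± 0.02 and 0.03 ± 0.01.

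Of 21 genes known as targets of Stat3, a list chosen with earlier results known, 3 were called higher in each region and 0 lower. Of all features, 0.31% were called higher in the core and 0.241% in the penumbra. Fos, a subunit of the AP-1 factor, had ratios of 3.34 ± 0.32 (core) and 3.02 ± 0.31 (penumbra). Nfil3, a leucine zipper repressor, had 1.504 ± 0.21 and 1.59 ± 0.18, and Junb, another AP-1 subunit, had 1.35 ± 0.05 and 1.34 ± 0.02. With spike-in scaling Fos and Nfil3 stayed above 1 log2 unit in both regions, while Junb came to 0.87 and 0.88, which ended its calls. All 3 are also immediate early or stress genes that other pathways switch on. The list had medians of 0.31 and 0.21, and 16 and 13 of its 21 genes were above 0 on both arrays, against 26.9% and 30.3% of features; with spike-in scaling 4 were in either region.

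The interferon target list had 0 of 9 called and medians of 0.20 and 0.10. Irf1, an interferon-induced transcription factor, had 0.27 ± 0.02 and 0.22 ± 0.01, and Ifit3, an antiviral protein, had -0.01 ± 0.16 and -0.10 ± 0.09. Cxcl10, an interferon-induced chemokine that was the highest in the core, had 0.92 ± 0.27 there and 0.15 ± 0.16 in the penumbra. In the list of the Stat5 and growth hormone axis 0 of 7 measured genes were called, with medians of 0.04 and 0.06. Bcl6, a repressor that Stat5 controls, had 0.32 ± 0.24 and 0.50 ± 0.11, and Igf1r, the receptor of insulin-like growth factor, had 0.07 ± 0.02 and 0.07 ± 0.18. With spike-in scaling the median of every one of these lists would lie below 0 in both regions, since none reached 0.46.

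**Figure D4:**
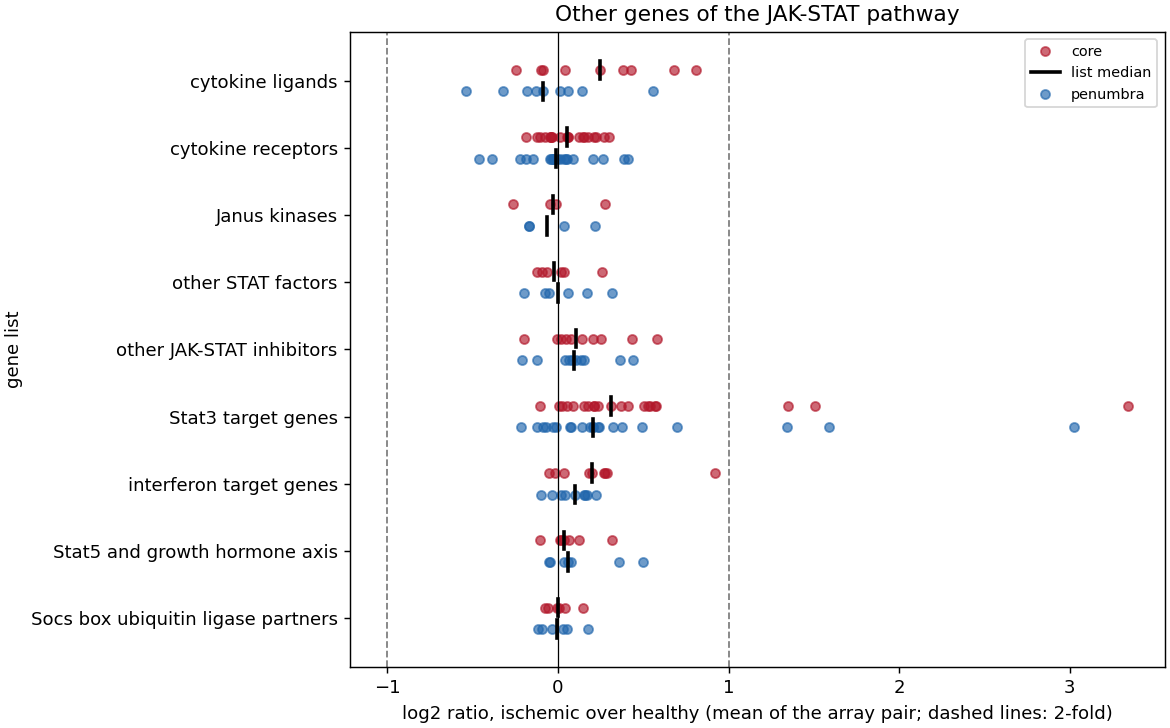
Mean log2 ratio of ischemic over healthy tissue (horizontal axis) for each measured gene of 9 pathway lists (vertical axis), in the core (red) and the penumbra (blue), with black bars for list medians and dashed lines at 2-fold. Fos, Nfil3 and Junb among the Stat3 targets are the genes past the dashed lines, and the medians of the Janus kinases and of the Socs box partners lie near 0; spike-in scaling would move every point to the left by 0.47 or 0.46.

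The genes whose 4 array values were most like those of Socs3 were sought among 13631 named genes measured in both regions, by the Euclidean distance over 4 arrays. Map3k14, the kinase of the alternative NF-kappaB pathway, was nearest at a distance of 0.08, with 0.94 ± 0.03 in the core and 0.58 ± 0.07 in the penumbra. Mmp8, the neutrophil collagenase, followed at 0.11 with 0.95 ± 0.07 and 0.57 ± 0.05. Next were Iigp1, an interferon-inducible GTPase, at 0.17, Asb4, a protein with ankyrin repeats and a Socs box, at 0.17, and Klf10, a zinc finger factor, at 0.17. Asb4 had 0.93 ± 0.10 (core) and 0.58 ± 0.04 (penumbra). The distance rests on 4 arrays that share 1 slide.

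**Figure D5:**
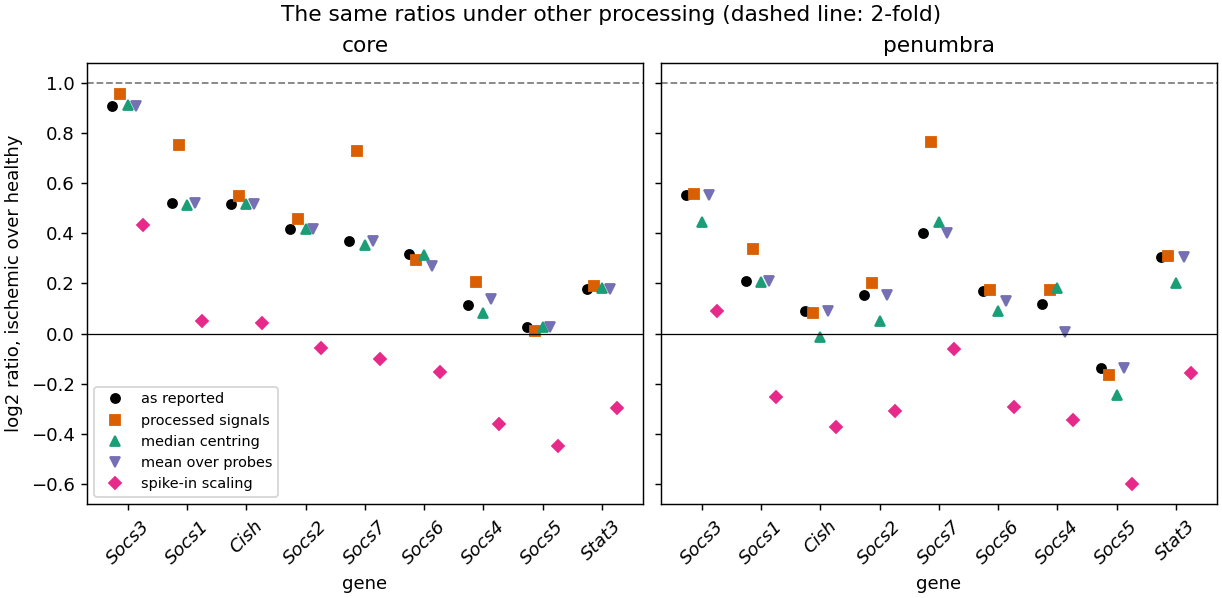
Mean log2 ratio of the 9 genes (horizontal axes) in the core (left) and the penumbra (right) under 5 ways of processing, one marker each, with 2-fold as a dashed line. Spike-in scaling (diamonds) lies 0.47 or 0.46 lower throughout and leaves Socs3, Socs1 and Cish above 0 in the core and Socs3 in the penumbra; processed signals (squares) are higher for Socs7 and Socs1.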

How the data were processed

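RNA from 4 tissues was measured on 4 two-color arrays on 1 slide, so no batch could be tested. Spot intensity in Cy3 and Cy5 was read out by the authors with Agilent Feature Extraction (version 11.0.1.1, named in the headers and in the submitters' notes) and deposited without further change. A table of the series held the authors' log10 ratios, equal to log10 of the authors' processed Cy5 over processed Cy3 signal within 5e-06; its column medians were -0.0215, 0.00516, -0.0199 and -0.0115 for replicates 1 to 4.

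Here median spot signals were background-corrected with normexp (offset 50), normalized by loess within each array (control and outlier spots at weight 0) in limma 3.58.1 (R 4.3.3), and turned to ischemic over healthy. Probes had to be well above background on both arrays of at least 1 tissue. Single-channel values were scaled with Aquantile. Of 41174 probes, 23374 were named by accession through a RefSeq table of GRCm38.p6; the others kept their accession. Spots of a probe were averaged. Tables were handled in Python 3.11.15 (pandas 2.3.3, numpy 2.4.6), plots in matplotlib 3.10.9. The fits and the size rule were tested on simulated data.

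The 9 genes and all lists were chosen with earlier results of these data known; counts of genes on one side of 0 were chosen after seeing the data. Named are the 9 genes, up to 4 called genes of each list or otherwise its brightest up to 2, and the 5 genes nearest to Socs3; list extremes (Il6, Csf3, Il11, Tslp, Ptpn6 and Cxcl10) were chosen after their values were seen. One gene that this rule took is not reported here. limma p-values measure only the spread between these arrays, which may be technical. The number of arrays limits the precision. The alternatives were processed signals, median centring, no filter on dim probes, the mean over probes, spike-in scaling, each array left out, limma and single dyes.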

Additional observations from a re-analysis of the deposited data

Results flagged for a closer look

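The core response was larger than the penumbra response by limma over arrays with a dye coefficient for Cish (0.4254), Socs3 (0.3583), Socs1 (0.3132) and Socs2 (0.2645), in log2 units. limma without that coefficient passed none of them, and its adjusted p ran from 0.651 for Cish to 1 for Socs1 and Socs2. For Socs2, 1 core array (0.26) was below 1 penumbra array (0.34). The second probe of Socs4 was above 0 on both core arrays and below 0 on both penumbra arrays, a difference of 0.2696 that was not tested, and the brighter probe of Socs4 did not show it.

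Among the ligands, Il6 (0.9902), Csf3 (0.9664) and Il11 (0.5086) were above 0 on both core arrays and below 0 on both penumbra arrays, and their differences passed limma with a dye coefficient and not limma without it. Il6 and Csf3 were dim, and with processed signals their differences were 2.97 and 2.89. Healthy core over healthy penumbra was -0.54 ± 0.08 for Il6, -0.57 ± 0.05 for Csf3 and 0.01 ± 0.03 for Il11. Ischemic core over ischemic penumbra was 0.45 ± 0.17, 0.39 ± 0.08 and 0.52 ± 0.06. For Il6 and Csf3 the difference thus lay in both healthy and ischemic tissue, and for Il11 in ischemic tissue. The receptor gene Epor (0.4437) was likewise above 0 on both core arrays and below 0 on both penumbra arrays. Its adjusted p was 0.00184 from limma with a dye coefficient and 0.725 from limma without it. Fos differed by 0.315 by limma with a dye coefficient, less than the SD of 0.45 over arrays. Rbx1 was below 0 on both core arrays and above 0 on both penumbra arrays, a difference of -0.0864 that did not pass limma with a dye coefficient (adjusted p = 0.464).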

How the results depend on the processing

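No gene of the 9 was called under any setting run, in any of the 5 comparisons. With spike-in scaling, genes above 0 on both arrays numbered 3 in the core (8 as reported) and 1 in the penumbra (7 as reported). Leaving out 1 array gave 8 to 9 in the core and 7 to 8 in the penumbra. For the difference between regions the count of genes with core arrays above penumbra arrays was 4, and leaving out 1 array gave 4 to 6. Between healthy pieces, 2 genes were higher with Cy5 alone and 2 with Cy3 alone (1 as reported). Between ischemic pieces, 5 were higher with processed signals and 5 with Cy3 alone (3 as reported). The cause was not tested. Over all features, processed signals called 253 higher in the core (76 as reported) and 199 in the penumbra (60 as reported), and spike-in scaling called 31 higher and 29 lower in the core and 29 and 41 in the penumbra. Processed signals called 101 differences between regions higher and 80 lower (10 and 5 as reported), 274 and 591 between healthy pieces (78 and 204) and 397 and 643 between ischemic pieces (110 and 227). limma called 2 differences between regions with both a low adjusted p and 1 log2 unit, and with a dye coefficient it called 10 higher and 5 lower. No paired analysis was possible because core and penumbra arrays share no replicate number. Low signal over background limits Socs1, Socs4 and Socs7; with processed signals, which also replace the background correction and the normalization, Socs1 and Socs7 had larger ratios, and the added offset alone was not varied.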
